A study of Mus musculus with 24 samples.

Results

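Gamma-aminobutyric acid (GABA) is the main inhibitory transmitter of the striatum, where the projection neurons and most interneurons release it. Glutamate is decarboxylated to GABA by the glutamate decarboxylases GAD67 and GAD65, encoded by Gad1 and Gad2, and the vesicular transporter encoded by Slc32a1 loads GABA into synaptic vesicles. Released GABA is cleared by plasma membrane transporters, of which Slc6a11 encodes the astrocytic GAT-3 and Slc6a13 encodes GAT-2, found in leptomeninges and at blood-brain borders. It is degraded by the transaminase encoded by Abat, and Gphn encodes gephyrin, the scaffold that anchors inhibitory receptors. These 7 genes were chosen by name, out of 24340 genes shared by all 6 deposited tables, and each was found in every table.

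Striatal RNA from a single hemisphere of each of 24 male mice was sequenced. R6/1 mice, hemizygous for a transgene holding exon 1 of human HTT with an expanded CAG repeat on a C57BL/6J background, were compared with wild type (WT) littermates. Groups comprised 5 WT-vehicle, 6 R6/1-vehicle, 6 WT-RGFP109 and 7 R6/1-RGFP109 mice. RGFP109, an inhibitor of the histone deacetylases HDAC1 and HDAC3, was injected intraperitoneally (30 mg/kg, 5 injections weekly over 3 weeks, starting at 11 to 14 weeks of age), and vehicle mice received the DMSO in saline solvent. Mice were killed 18 h after the last injection, at 14 to 17 weeks. The question put by the design was which transcripts differ between genotypes and whether RGFP109 moves them.

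The deposited values are FPKM (fragments scaled to transcript length and to the mapped fragments of the library), 1 per group and table, with no value per mouse. Differences below are therefore descriptions of log2 differences of group values, with no SD, test or p-value, and the depth of the libraries is unknown. A gene was counted as past the fold when its log2 difference exceeded 0.5 in size. In bulk tissue, fewer cells of a type and less RNA per cell cannot be told apart. Striatal identity was visible in all groups, with Ppp1r1b (DARPP-32 of projection neurons) at 1137 FPKM in WT-vehicle, 452 FPKM in R6/1-vehicle, 1030 FPKM in WT-RGFP109 and 403 FPKM in R6/1-RGFP109, as the authors' values averaged over tables.

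Promoter sequences of the 3 genes that make and package GABA are shown to place the transcripts measured here, since Gad1, Gad2 and Slc32a1 define a GABAergic neuron. Each window holds 128 bases, from 250 to 123 bases before the RefSeq start, on the plus strand of GRCm38.p6 (the mm10 assembly). Windows were cut to end before annotated exons of the 3 genes, so the bases nearest the start were not searched. Capitals mark matches to a TATA box (TATAAA), a GC box (GGGCGG) or a CCAAT box (CCAAT), searched on both strands.
Gad1, chr2:70561879-70562006: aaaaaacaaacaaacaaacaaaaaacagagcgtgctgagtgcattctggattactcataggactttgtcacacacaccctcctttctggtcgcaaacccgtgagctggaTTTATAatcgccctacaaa
Gad2, chr2:22622077-22622204: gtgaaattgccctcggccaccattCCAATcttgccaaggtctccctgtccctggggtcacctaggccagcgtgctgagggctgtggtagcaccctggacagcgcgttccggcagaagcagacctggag
Slc32a1, chr2:158610508-158610635: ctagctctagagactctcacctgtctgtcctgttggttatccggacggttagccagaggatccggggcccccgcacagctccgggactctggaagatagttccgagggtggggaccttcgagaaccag
Within these windows Gad1 held a TATA box match on the minus strand, Gad2 a CCAAT box and Slc32a1 no match. Over 32851 promoter windows of the same length, 6.38% held TATAAA, 13.8% GGGCGG and 17.2% CCAAT. GC content was 42.2% for Gad1, 62.5% for Gad2 and 60.2% for Slc32a1, against a median of 50.8% over those windows. A match is a run of letters and no evidence of a bound factor.

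On the per-length FPKM scale, Gad1 was the highest of the 7 genes. Ranks were taken among the 12996 genes at 1 FPKM or more in every group, so the lower genes of the 24340 are left out. The mean of Gad1 over the 4 groups exceeded that of 97.1% of these genes. Abat followed at 95.9%, Slc32a1 at 94.5%, Gad2 at 91.6%, Slc6a11 at 84.6% and Gphn at 75.7%. Slc6a13 was far below them and exceeded only 10.9% of the genes that met this minimum. The transporter gene Slc6a12 (BGT1), which is not among the 7, stayed under 1 FPKM in every group. Levels of a group differ by up to 3.77% between tables, and with 1 value per group the spread between neighbours in this order is unknown.

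Among the synthesis genes, Gad1 (chr2:70489940-70602012 in the deposited table, 17 exons) was at 174.2 FPKM in WT-vehicle and 170.8 FPKM in R6/1-vehicle, and at 188.3 FPKM in WT-RGFP109 and 149.2 FPKM in R6/1-RGFP109. Its 2 vehicle groups were nearly level, whereas its treated groups stood on either side of them. The deposited Gad1 locus also spans the antisense gene Gad1os, and the sources used here do not state whether counting used strand. Gad1os itself was at 0.60 FPKM in WT-vehicle, 0.57 FPKM in R6/1-vehicle, 0.67 FPKM in WT-RGFP109 and 0.54 FPKM in R6/1-RGFP109. Gad2 (chr2:22622327-22693877, 16 exons) was at 67.2 FPKM in WT-vehicle and 79.7 FPKM in R6/1-vehicle, and at 83.5 FPKM in WT-RGFP109 and 69.9 FPKM in R6/1-RGFP109. WT-vehicle was thus the lowest group for Gad2, and the order of the genotypes turned under RGFP109.

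Slc32a1 (chr2:158610758-158615747, 2 exons) was at 99.5 FPKM in WT-vehicle and 113.2 FPKM in R6/1-vehicle, and at 103.2 FPKM in WT-RGFP109 and 102.2 FPKM in R6/1-RGFP109. R6/1-vehicle was the one group that stood higher. Of the 51-base windows of its annotated transcripts, 23.6% also occur in the antisense gene Gm14205, so reads of the pair may be shared. Abat (chr16:8513429-8621567, 16 exons) followed the same order of genotypes, with 126.8 FPKM in WT-vehicle and 138.3 FPKM in R6/1-vehicle, and 136.7 FPKM in WT-RGFP109 and 127.2 FPKM in R6/1-RGFP109.

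Of the transporters, Slc6a11 (chr6:114131241-114249886, 14 exons) was at 44.6 FPKM in WT-vehicle and 42.7 FPKM in R6/1-vehicle, and at 53.8 FPKM in WT-RGFP109 and 42.2 FPKM in R6/1-RGFP109. Here WT-RGFP109 stood above the other groups, which lay close together. Slc6a13 (chr6:121300296-121337718, 15 exons) was at 2.40 FPKM in WT-vehicle and 3.19 FPKM in R6/1-vehicle, and at 2.58 FPKM in WT-RGFP109 and 2.30 FPKM in R6/1-RGFP109. R6/1-vehicle was its highest group. Gphn (chr12:78226655-78684769, 24 exons) was nearly flat, from 28.3 FPKM in R6/1-RGFP109 to 30.6 FPKM in WT-RGFP109.

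**Figure D1:**
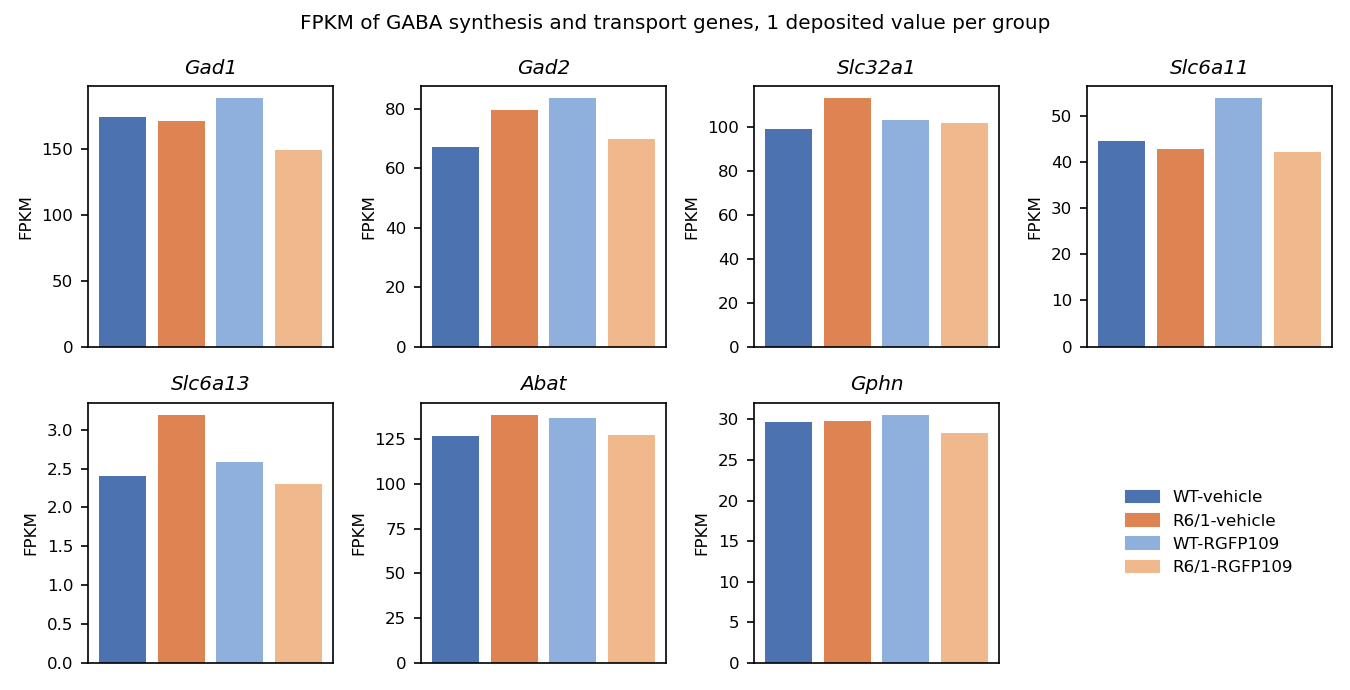
FPKM (vertical axes, from 0, a separate scale per gene) of the 7 genes in the 4 groups, each bar the single deposited group value, taken from the vehicle table for WT-vehicle and R6/1-vehicle and from the RGFP109 table for the others. WT-RGFP109 is the highest bar for Gad1, Gad2 and Slc6a11, R6/1-vehicle for Slc32a1, Slc6a13 and Abat, and the bars of Gphn are nearly level.

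Between genotypes under vehicle, 0 of the 7 genes passed the fold, while 14.3% of 13659 genes with a mean of at least 1 FPKM did. Log2 differences (R6/1-vehicle minus WT-vehicle) ran from -0.06 for Slc6a11 to 0.40 for Slc6a13, with a median of 0.13, and 5 were above 0. The signed median over all genes was -0.0067, and the share of all genes above 0 was not calculated. Gad2 was 0.25 higher, Slc32a1 0.19 and Abat 0.13, whereas Gad1 differed by -0.03 and Gphn by 0.01. Over all genes 38.8% differed by at least as much as Gad2 and 91.5% by at least as much as Gad1. The median size over all genes was 0.19. Scaling by the summed FPKM of each group in place of Cuffdiff's scaling adds 0.13 to every gene in this pair, which puts Slc6a13 past the fold at 0.53 and turns Gad1 and Slc6a11 above 0. The same scaling takes the share of lower genes among those past the fold from 72.2% to 47.7%.

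Between genotypes under RGFP109, 0 of 7 passed the fold against 12.3% of 13651 genes. All 7 values were below 0, and the signed median over all genes was 0.01. The share of all genes below 0 was not calculated for this pair. Slc6a11 differed by -0.35, Gad1 by -0.34, Gad2 by -0.26, Slc6a13 by -0.17, Gphn by -0.11, Abat by -0.10 and Slc32a1 by -0.01. The median was -0.17, and the median size over all genes was 0.16. By summed FPKM, which adds 0.09, Slc32a1 turns to 0.08 and the other 6 stay below 0, and the share of lower genes among those past the fold goes from 71.1% to 56.6%. Past the fold with the same sign in both genotype comparisons, which share no mice, were 0 of the 7 genes and 8.08% of all genes.

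RGFP109 against vehicle gave opposite signs in the genotypes. In R6/1 mice all 7 genes were lower with RGFP109, from -0.02 for Slc6a11 to -0.47 for Slc6a13, with a median of -0.15. None passed the fold, which 3.00% of all genes did, and 48.1% of all genes were lower by any amount. Gad1 (-0.20) and Gad2 (-0.19) moved about equally, so that their ratio stayed at 2.14 in R6/1-vehicle and 2.13 in R6/1-RGFP109. Differences at least as large as that of Gad1 were held by 9.16% of genes, as that of Slc6a13 by 3.21% and as that of Slc6a11 by 72.8%.

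In WT mice all 7 genes were higher with RGFP109, from 0.04 for Gphn to 0.31 for Gad2, with a median of 0.10. Again 0 passed the fold, which 3.90% of all genes did, and 49.0% of all genes were higher by any amount. Gad2 and Slc6a11 (0.26) stood out from the other 5, which lay at 0.11 or less. Differences at least as large as that of Gad2 were held by 7.51% of genes, as that of Slc6a11 by 9.55% and as that of Gphn by 71.4%. Being lower in R6/1 and higher in WT, as all 7 were, applied to 23.6% of 13288 genes. The 7 genes need not vary independently of each other, which was not tested. The treatment comparisons share no mice with each other, and each of their groups also enters a genotype comparison. The count of 7 held under each scaling and pseudocount tried. However, a pseudocount cannot change a sign, and each scaling tried moved these values away from 0, so the settings were no test of the signs.

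**Figure D2:**
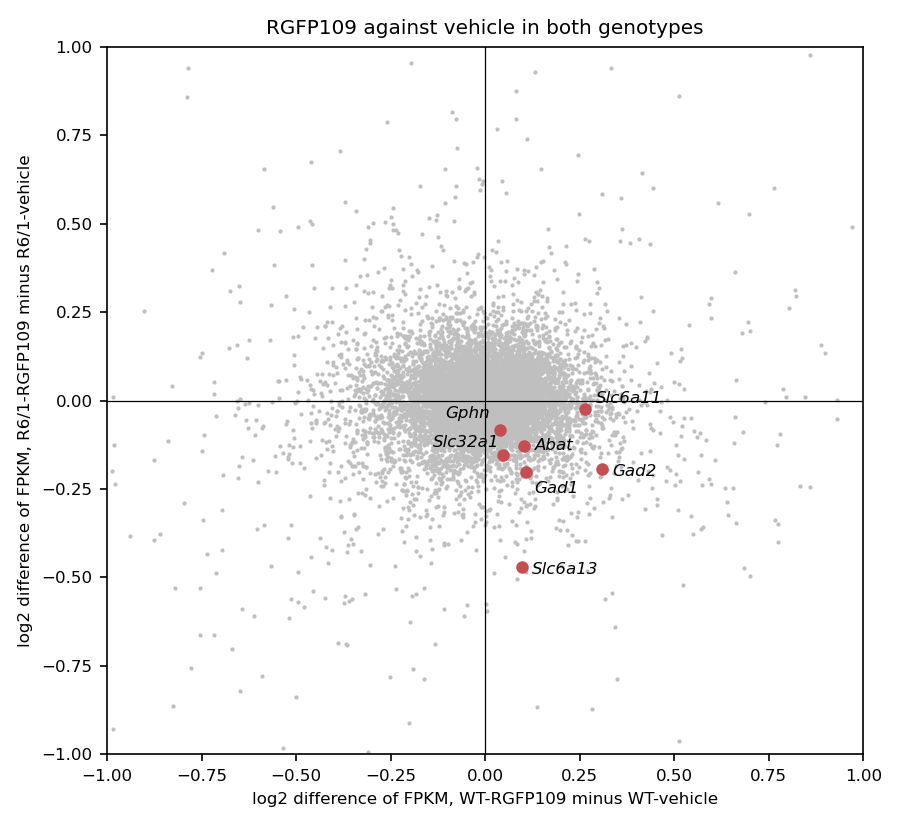
Log2 difference of FPKM for RGFP109 against vehicle in WT mice (horizontal) and in R6/1 mice (vertical), with grey points for 13288 genes of which 266 lie outside the axes, and red points for the 7 GABA genes. All 7 lie to the right of 0 and below 0, with Slc6a13 lowest at -0.47 and Gad2 farthest right at 0.31.

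The genotype difference under vehicle minus that under RGFP109 was above 0 for all 7 genes, with a median of 0.29, against 47.6% of 13237 genes above 0 and a median of -0.01. Up to table scaling, this value equals the RGFP109 difference in WT minus that in R6/1. Its sign for the 7 genes thus follows from the opposite signs above and is no further result. The value reached 0.57 for Slc6a13 and 0.50 for Gad2, sizes reached by 3.29% and 4.03% of genes, and was 0.31 for Gad1, 0.29 for Slc6a11, 0.23 for Abat, 0.20 for Slc32a1 and 0.12 for Gphn. This difference was not tested, since no value per mouse was used. R6/1-RGFP109 against WT-vehicle gave 0 of 7 past the fold (14.1% of all genes), with Gad1 at -0.23, Gad2 at 0.05 and Abat at -0.0015. That pair shares its groups with the comparisons above.

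**Figure D3:**
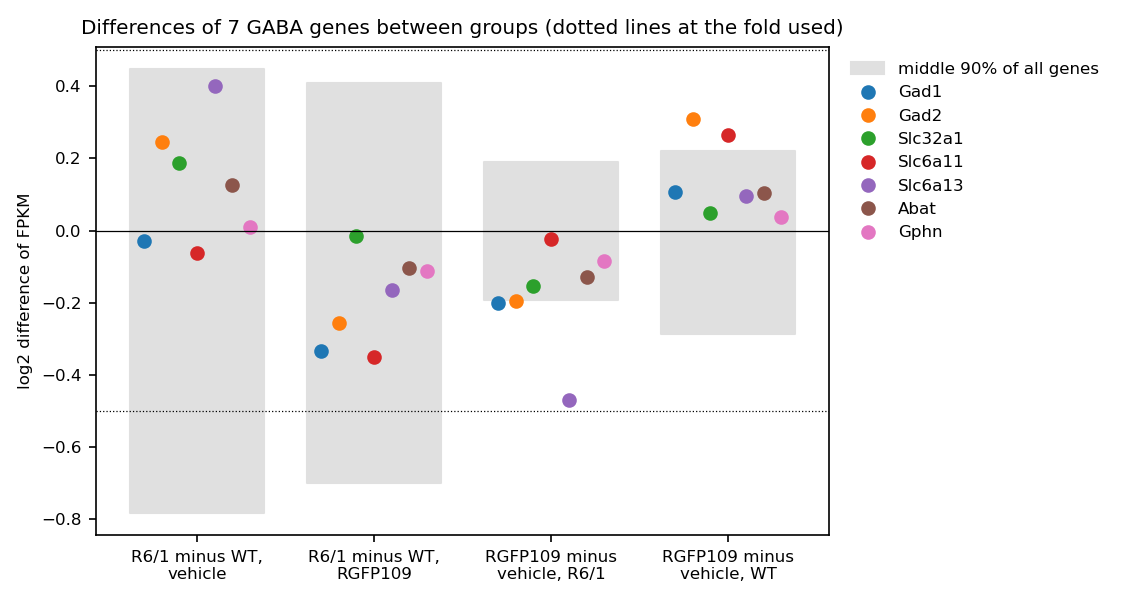
Log2 difference of FPKM (vertical axis) of each of the 7 genes in 4 comparisons, with grey boxes for the middle 90% of all genes of at least 1 FPKM and dotted lines at 0.5 on either side. Points lie on both sides of 0 under vehicle, all below 0 under RGFP109 and in treated R6/1, and all above 0 in treated WT.

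Ratios within a group do not depend on the scaling of the table. Gad1 to Gad2 was 2.59 in WT-vehicle and 2.25 in WT-RGFP109, and 2.14 and 2.13 in R6/1-vehicle and R6/1-RGFP109, so that WT-vehicle stood apart. Slc32a1 over the sum of Gad1 and Gad2 was 0.412 in WT-vehicle and 0.380 in WT-RGFP109, and 0.452 in R6/1-vehicle and 0.466 in R6/1-RGFP109, higher in R6/1 under either injection. The sum of Gad1 and Gad2 over Abat ranged from 1.72 in R6/1-RGFP109 to 1.99 in WT-RGFP109.

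Marker lists of the neurons that use GABA had lower medians than the 7 GABA genes, which were at 0.13 under vehicle and -0.17 under RGFP109. Of 17 striatal projection neuron genes 11 were past the fold and lower in R6/1 under vehicle and 12 under RGFP109, with medians of -1.10 and -1.21, and none was higher. Penk (enkephalin) differed by -2.01 and -2.17, Adora2a (an adenosine receptor of indirect pathway neurons) by -1.97 and -1.93, Pde10a by -1.53 and -1.68 and Rgs9 by -1.54 and -1.55. Of 11 GABAergic interneuron genes 8 and 9 were lower, with medians of -0.85 and -0.88, among them Vip at -2.05 and -1.44, Cck at -1.497 and -0.78, Npy at -1.12 and -1.10 and Nos1 at -0.90 and -0.99. Short of the fold in both were Lhx6 at -0.13 and -0.41 and Nkx2-1 at 0.08 and -0.07, and under vehicle also Th at -0.03. With RGFP109 Cck differed by 0.48 in R6/1 and -0.24 in WT, beside medians of 0.44 and -0.19 for neocortical glutamatergic genes. Vip differed by 0.41 in R6/1 and -0.20 in WT with RGFP109, where the interneuron list had medians of 0.02 and -0.0055. Which cells carry the Cck and Vip values was not tested. Over 8 pan-neuronal genes the medians were -0.15 and -0.28 with 0 past the fold, and of 7 measured GABAergic transcription factor genes only Isl1 passed it, at 0.67 under vehicle.

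Of 15 other genes of GABA handling at 1 FPKM or more, 3 were lower past the fold under vehicle and 2 under RGFP109, and the medians were -0.05 and -0.07. Lower were Glul (astrocytic glutamine synthetase) at -0.64 and -0.51, Slc38a3 (glutamine release) at -0.53 and -0.61, and Slc6a6 (taurine transporter) at -0.50 and -0.44, the last past the fold under vehicle only. Slc38a1 (neuronal glutamine uptake) stood at 0.46 and 0.37, short of the fold. Astrocyte markers were lower as well, with 4 and 3 of 11 genes lower and medians of -0.37 and -0.42, among them Slc1a2 at -0.73 and -0.68, and the astrocytic transporter gene Slc6a11 differed by -0.06 under vehicle and -0.35 under RGFP109.

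On the receiving side, 1 of 18 measured receptor and inhibitory postsynapse genes passed the fold, in both genotype comparisons. This was Gabrd (delta subunit of extrasynaptic GABA-A receptors), at 82.2 FPKM in WT-vehicle and 29.4 FPKM in R6/1-vehicle as averages over tables. Its log2 differences within a table were -1.51 under vehicle and -1.45 under RGFP109. The list medians were 0.03 and -0.03. Gabrb1 differed by 0.32 and 0.11 and Gabra2 by -0.06 and -0.30.

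**Figure D4:**
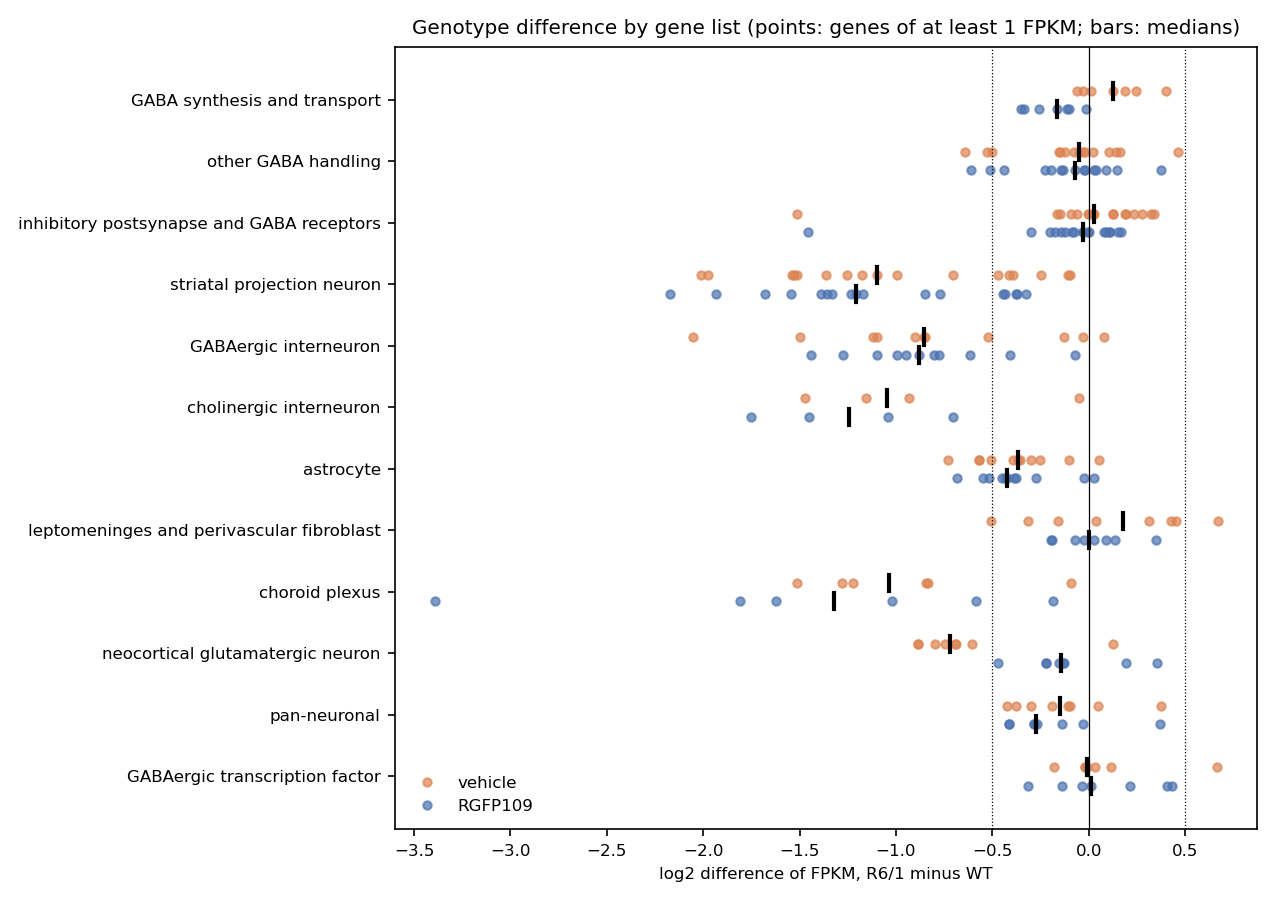
Log2 difference of FPKM, R6/1 minus WT (horizontal axis), for genes of at least 1 FPKM in each list, under vehicle (orange) and RGFP109 (blue), with a black bar at each median and dotted lines at 0.5 on either side. The GABA genes lie between -0.35 and 0.40, while the projection neuron list has medians of -1.10 and -1.21.

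Markers of other cells and regions moved between the same groups. Of 8 leptomeningeal and perivascular genes at 1 FPKM or more, 1 was higher and 1 lower past the fold between genotypes under vehicle, and 0 under RGFP109. The higher one, Aldh1a2, differed by 0.67 between genotypes under vehicle and by 0.09 under RGFP109, and by -0.58 with RGFP109 in R6/1. The lower one, Dcn, differed by -0.51, -0.02 and -0.39 in these comparisons. Slc6a13 differed by 0.40, -0.17 and -0.47 in them. It shared the sign of Aldh1a2 in the first and last, and that of Dcn in all but the first. With RGFP109 in WT, Slc6a13 differed by 0.10, Aldh1a2 by 0.0033 and Dcn by -0.88. The list's medians were 0.18 and 0.00 for genotype and -0.46 and -0.19 for RGFP109 in R6/1 and WT, with 4 and 3 genes lower past the fold, Igf2 at -0.93 and -1.04 among them. All 6 measured choroid plexus genes were lower past the fold with RGFP109 in either genotype. The summed FPKM of all 8 listed choroid plexus genes, averaged over tables, was 47.0 in WT-vehicle, 16.9 in WT-RGFP109, 26.6 in R6/1-vehicle and 9.76 in R6/1-RGFP109. Of 8 neocortical glutamatergic genes 7 were lower in R6/1-vehicle than in WT-vehicle (median -0.72), 0 passed the fold between genotypes under RGFP109 (median -0.14), and 3 were higher with RGFP109 in R6/1 (median 0.44). In WT mice the interneuron list had a median of -0.0055 with RGFP109 and genes on both sides of 0, from Htr3a at -0.36 and Cck at -0.24 to Calb2 at 0.49 and Th at 1.03, the last being the 1 gene past the fold. With RGFP109 all 4 cholinergic genes were lower in R6/1 (median -0.10) and higher in WT (median 0.19), with 0 past the fold. The opposite signs of the 7 GABA genes were thus not particular to them. Between genotypes the cholinergic genes were lower past the fold in 3 of 4 cases under vehicle and in 4 of 4 under RGFP109. The part of any of these cells in the values of the GABA genes was not tested.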

How the data were processed

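Single-end 51-base reads from TruSeq libraries of striatum, sequenced in 2 pools of 12, were aligned by the authors with STAR 2.5.0b to RefSeq transcripts of mm10, and the authors deposited FPKM values from Cufflinks 2.2.1 and Cuffdiff, 1 per group in each of 6 pairwise tables. The values of a group differ by up to 3.77% between tables, so each difference was taken within 1 table. Levels of the 7 genes came from the 2 genotype tables, and ranks, list sums and levels of other genes were averaged over tables. Columns of fold change, statistic, p-value and q-value are the authors' own comparisons and were not used. Log2 differences used a pseudocount of 0.05 FPKM, which understates low genes, and the background was genes with a mean of at least 1 FPKM in the pair. The fold of 0.5 is the study's. The 7 genes, the lists and the naming rule (the 7 genes, other GABA transporters, and per list up to 4 genes by mean genotype and 2 by mean treatment difference) were chosen with earlier results of these data known. Ppp1r1b, Htr3a, Lhx6, Nkx2-1, Gad1os and Gm14205 are named outside it. Results of some genes under this rule are not reported here. Genes of most similar pattern were to be named only for a gene spanning over 0.5, and none of the 7 did. Exons and shared windows came from GENCODE M21, promoters from RefSeq (6 of 7 genes matched). The calculation was tested on simulated data. Python 3.11.15, numpy 2.4.6, pandas 2.3.3 and matplotlib 3.10.9 were used.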

Additional observations from a re-analysis of the deposited data

How the results depend on the processing

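Single values per group allowed no leaving out of mice and no error, and the depth is unknown. No paired analysis was possible because the deposited tables hold 1 value per group. Of 92 alternative summaries 83 stayed within their tolerance, which for medians was 0.1. That share overstates stability, since some of the 83 could not move. A count of 0 at a fold of 0.5 must stay 0 at a fold of 1, and a pseudocount cannot change a count of signs. At a fold of 0.25 the count of GABA genes past it was 1 between genotypes under vehicle, 3 under RGFP109, 1 for RGFP109 in R6/1 and 2 in WT, against 0 at 0.5. Shares of all genes past 0.25 were not calculated. Near it, 38.8% of all genes differed by at least 0.246 between genotypes under vehicle and 31.5% by at least 0.257 under RGFP109. For RGFP109 against vehicle in R6/1, 9.16% differed by at least 0.202 and 3.21% by at least 0.472, the size of the 1 gene counted. In WT 9.55% differed by at least 0.264. By summed FPKM the count at 0.5 was 1 under vehicle, where 1078 of 13659 genes were higher and 982 lower past the fold. The median of the GABA genes became 0.26 under vehicle and 0.055 for R6/1-RGFP109 against WT-vehicle (from 0.13 and -0.07). With no minimum FPKM, 5.60% of all genes passed the fold for RGFP109 in R6/1 and 7.87% in WT. Of 210 alternative values of single genes 194 moved by under 0.1, and 14 of the 16 others came from summed FPKM. Differences taken indirectly, through another group, moved no value by over 0.0021. These routes reuse the same group values up to a factor per table, so their agreement says little about stability. They are counted among the 92 and the 210 alternatives above. Alternatives for the difference of genotype differences, and the direction counts, were added after the data were seen.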
